A study of Homo sapiens with 12 samples.

Results

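The region described here is a block of chromosome 22 that carries CSNK1E, the gene of casein kinase 1 epsilon, in HEK293T cells. Its members are the called peaks on chromosome 22 that start from 37 up to 40 Mb (GRCh38), a span that also holds TMEM184B, KCNJ4 and KDELR3. Over 10 peak lists there were 6893 such peaks, of 53140 on chromosome 22 and 1493372 in all. The block was chosen because peaks crowd there, so the number, coverage and height of its peaks are given as a description, with no test, and only the place of peaks relative to genes and to each other was tested.

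Chromatin immunoprecipitation followed by sequencing maps where a protein sits on DNA by recovering crosslinked fragments with an antibody. It was carried out on wild-type HEK293T cells, a human embryonic kidney line, with antibodies against INTS13, INTS11, HDGF, ZEB1 and ZNF609, 2 libraries each. All 5 groups are the same untreated line and differ in the antibody alone, and the ZNF609 antibody is one made by a laboratory and not a catalogue product. The 2 libraries of input chromatin were not analysed here. Nothing in the labels says that replicates came from separate cultures, so spread between them, and any p-value resting on it, may be technical.

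INTS13 and INTS11 are subunits of Integrator, which cleaves RNA that RNA polymerase II is making and ends transcription early at many genes; INTS11 does the cutting. HDGF binds chromatin through a PWWP domain, ZEB1 is a zinc finger repressor known for silencing epithelial genes, and ZNF609 is another zinc finger protein. CSNK1E encodes a kinase that phosphorylates PERIOD proteins of the circadian clock and Dishevelled in Wnt signalling. KCNJ4 encodes an inward-rectifier potassium channel, KDELR3 a receptor that returns proteins to the endoplasmic reticulum, and TMEM184B a transmembrane protein. Together with MAFF, a small basic leucine zipper factor, DDX17, an RNA helicase, and DMC1, the recombinase of meiosis, these genes lie side by side in the most heavily covered stretch of the block.

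The sequences just upstream of 4 of these genes are shown because they lie in that stretch and differ in how many libraries had a peak over them. Each is the 250 bases before the annotated start, 5′ to 3′ on the strand of the gene, from RefSeq for GRCh38.p14. Capitals mark bases under a peak of all 10 libraries, and only the first sequence has any.
CSNK1E: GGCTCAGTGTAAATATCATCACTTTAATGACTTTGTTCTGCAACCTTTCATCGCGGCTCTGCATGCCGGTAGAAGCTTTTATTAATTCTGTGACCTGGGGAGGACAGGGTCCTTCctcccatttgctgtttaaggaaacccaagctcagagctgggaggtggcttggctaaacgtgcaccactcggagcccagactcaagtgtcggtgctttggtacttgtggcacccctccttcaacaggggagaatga
MAFF: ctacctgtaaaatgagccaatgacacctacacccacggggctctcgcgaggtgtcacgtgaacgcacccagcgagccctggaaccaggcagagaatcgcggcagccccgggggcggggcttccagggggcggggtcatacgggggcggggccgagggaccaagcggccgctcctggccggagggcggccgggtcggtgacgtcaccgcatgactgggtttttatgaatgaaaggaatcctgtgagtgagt
TMEM184B: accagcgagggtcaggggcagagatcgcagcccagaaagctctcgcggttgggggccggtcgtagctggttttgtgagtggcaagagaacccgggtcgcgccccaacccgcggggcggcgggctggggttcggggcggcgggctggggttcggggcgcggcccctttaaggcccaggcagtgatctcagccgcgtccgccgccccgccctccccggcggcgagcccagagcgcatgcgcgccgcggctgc
KDELR3: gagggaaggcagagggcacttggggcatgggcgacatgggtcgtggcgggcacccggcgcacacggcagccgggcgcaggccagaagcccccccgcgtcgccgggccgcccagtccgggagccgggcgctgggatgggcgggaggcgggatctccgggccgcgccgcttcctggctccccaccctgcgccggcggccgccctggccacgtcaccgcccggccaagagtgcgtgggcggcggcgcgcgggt
The CSNK1E sequence is chr22:38318085-38318334 on the minus strand, and peaks of 10 of 10 lists touched it. Peaks of 8 lists covered it whole, the 2 ZNF609 lists covered 46.0% and 64.8% of it, and 115 of its 250 bases lay under peaks of all 10. The MAFF sequence, chr22:38201744-38201993 on the plus strand, was touched by 6 lists: those of INTS13, INTS11 and HDGF had a peak there, and those of ZEB1 and ZNF609 had none. At another annotated start of MAFF the pattern was reversed for HDGF and ZEB1: both ZEB1 lists covered the 250 bases before it (chr22:38202770-38203019) whole and both HDGF lists had no peak there. The TMEM184B sequence, chr22:38273011-38273260 on the minus strand, was touched by 9 lists, ZEB1 replicate 1 being the exception. Only 3 lists covered it whole, and ZEB1 replicate 2 covered just 0.4% of it. Another annotated start of TMEM184B (chr22:38272665-38272914) was touched by 6 lists. Both HDGF lists and ZEB1 replicate 2 had no peak there, and ZEB1 replicate 1 covered 21.6%. The KDELR3 sequence, chr22:38467846-38468095 on the plus strand, was also touched by 9 lists, without HDGF replicate 2, and covered whole by 5. Base composition differed among them, with a G+C share of 50.8% before CSNK1E, 65.6% before MAFF, 74.8% before TMEM184B and 80.0% before KDELR3.

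CSNK1E has another annotated start inside the gene, and there the picture was different. The 250 bases before it, chr22:38317434-38317683 on the minus strand, were touched by 5 lists and covered whole by none. INTS13 covered 80.0% and 66.8% of them, INTS11 52.8% and 37.2%, and HDGF replicate 1 covered 62.8%; HDGF replicate 2 and the 4 lists of ZEB1 and ZNF609 had no peak there. This window alone among the 8 looked at for the 5 genes MAFF, TMEM184B, CSNK1E, KCNJ4 and KDELR3 held CACCTG or its reverse complement CAGGTG. ZEB1 is known to recognise these letters, and other forms of its site were not searched for. The 30 bases around that match, with the 6 letters in capitals, are shown because the only match sat where ZEB1 had no peak.
CSNK1E second start: ccccgtcttttcCACCTGtgccctggactg
Of 34961 RefSeq promoter windows of this length, 6113 (17.5%) held 1 of the 2 forms, and of the 89 in the block 14 (15.7%) did. A match is a description of letters and not of binding. The KCNJ4 window, chr22:38444029-38444278 on the minus strand, held no match and was touched by 8 lists, all but ZEB1 replicate 2 and ZNF609 replicate 1. It also lies before a start inside its gene (chr22:38426327-38455199), and not upstream of the whole gene.

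Peaks of the block made up a share of the peaks of chromosome 22 that differed widely between proteins. INTS13 had 799 and 560 peaks in the block in replicates 1 and 2, and 10050 and 8305 in the rest of the chromosome. INTS11 had 1099 and 907 against 7308 and 4422, and HDGF 992 and 874 against 6090 and 5006. ZEB1 had 667 and 399 in the block against 2114 and 1203 outside it, so that the block held 24.0% and 24.9% of its peaks on the chromosome. ZNF609 had 355 and 241 against 1242 and 507, or 22.2% and 32.2%. For INTS13 the block held 7.36% and 6.32%, the lowest shares of the 10 lists.

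Set per Mb, ZNF609 peaks were 3.83 ± 1.35 times as dense in the block as in the rest of chromosome 22 (mean ± SD, n = 2, libraries 2.88 and 4.79), and ZEB1 peaks 3.26 ± 0.115 times (3.18 and 3.34). INTS11 stood at 1.79 ± 0.390 (1.51 and 2.06) and HDGF at 1.70 ± 0.0833 (1.64 and 1.76). INTS13 was on the other side of 1, at 0.740 ± 0.0859 (0.800 and 0.679). Both libraries of each of the other 4 proteins were above 1, and the ranges of INTS13 and of every other protein did not overlap. With the authors' peaks limited to a −log10 q of 5 or more the INTS13 ratio turned to 1.81, above 1 as for the other proteins.

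The lower count of INTS13 peaks did not go with less covered sequence. INTS13 peaks covered 77.0% and 80.7% of the bases of the block, against 41.2% and 44.0% of the rest of chromosome 22. Its peaks were wider in the block, with medians of 1763 and 2386.5 bp against 738 and 932 bp outside, and 34 and 52 of them were 10 kb or longer. By covered bases INTS13 was therefore 1.85 ± 0.0226 times higher in the block (SD, n = 2), and all 10 lists were above 1. INTS11 covered 57.0% and 32.8% of the block against 23.0% and 10.3% outside, and HDGF 31.6% and 24.7% against 13.6% and 9.96%. ZEB1 covered 18.9% and 11.3% against 4.17% and 2.14%, and ZNF609 10.8% and 6.17% against 2.27% and 0.785%. The ratio of covered bases was 2.83 ± 0.509 in INTS11 and 2.40 ± 0.112 in HDGF. ZEB1 reached 4.89 ± 0.526, and ZNF609 had the highest value, 6.31 ± 2.19. INTS11 had the largest gap between libraries in covered share of the block, and in every protein but INTS13 replicate 1 had the higher share.

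By number of peaks the edges of the block were not sharp. The median over the 10 lists was 201.5 peaks in the Mb before the block, 237.5, 250 and 224.0 in its 3 Mb, and 336.0 in the Mb after it, which had the highest median of the 36 bins of 1 Mb on the chromosome. The 3 bins of the block ranked 11, 9 and 12 of 36. By covered bases the middle Mb of the block ranked 1 of 36, with a median of 41.7%. Its neighbours within the block, at 23.8% and 17.7%, ranked 5 and 9, and the bins just outside had 14.0% and 23.4%.

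**Figure D1:**
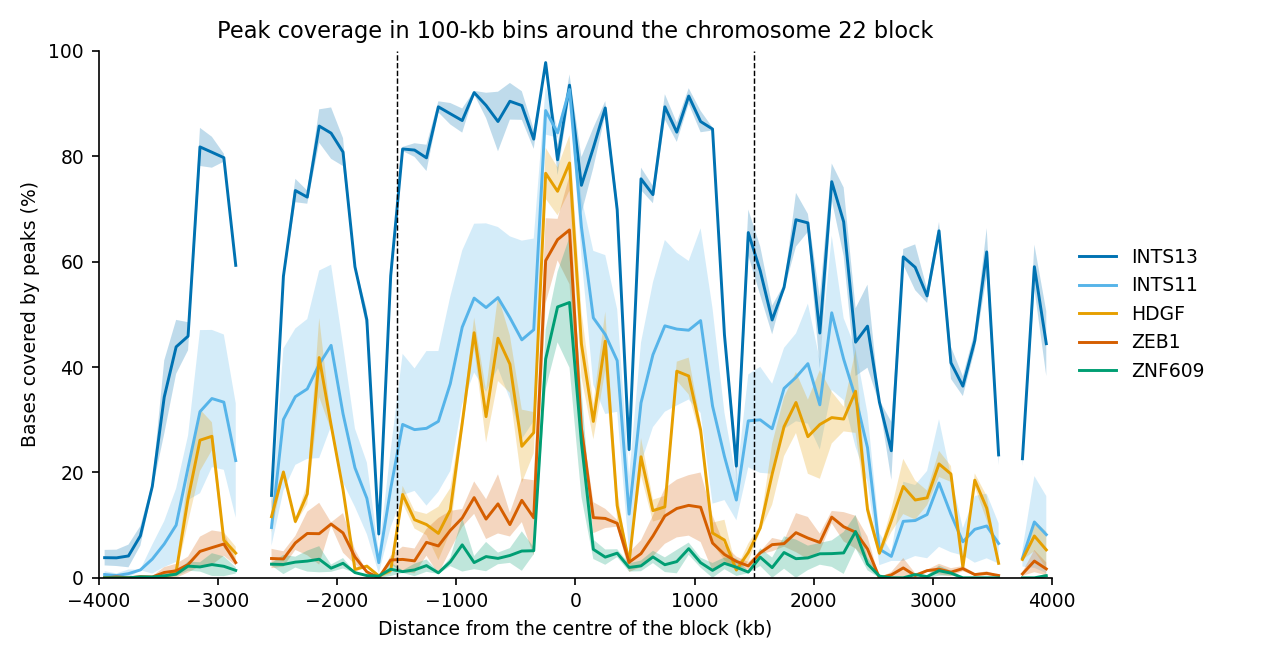
Share of bases covered by peaks (percent) in bins of 100 kb, against distance from the centre of the block (kb); lines are means of 2 libraries, bands span the 2 libraries, dashed lines mark the ends of the block, and bins with no peak of any list are left blank. Coverage of INTS11, HDGF, ZEB1 and ZNF609 is highest in 1 narrow stretch at and left of the centre, where ZNF609 goes from a mean of 5.14% in the 100 kb before it to 41.5% in its first 100 kb.

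The coverage that all 5 proteins shared was concentrated in 370 kb. In steps of 10 kb, the longest run on chromosome 22 with a mean of over 4 of the 10 lists covering a base was chr22:38200001-38570000, which runs from MAFF to DMC1. The next longest such run on the chromosome was 90 kb (chr22:21570001-21660000). On average 7.02 lists covered a base of the stretch, against 3.01 in the rest of the block and 1.51 in the rest of chromosome 22. The step just before it had 3.57 lists and the step just after it 1.97, and inside it the steps ran from 4.45 to 8.87. This stretch was picked after its values were seen, and what follows on its coverage is a description. The input libraries were not analysed, so whether input chromatin also gives more signal in the stretch was not tested. Coverage shared by the proteins is therefore not a measure of joint binding. With a limit of 3 lists the run grew to 410 kb (chr22:38160001-38570000), and with 5 it fell into 2 runs of 160 and 180 kb on either side of a dip before KCNJ4.

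**Figure D2:**
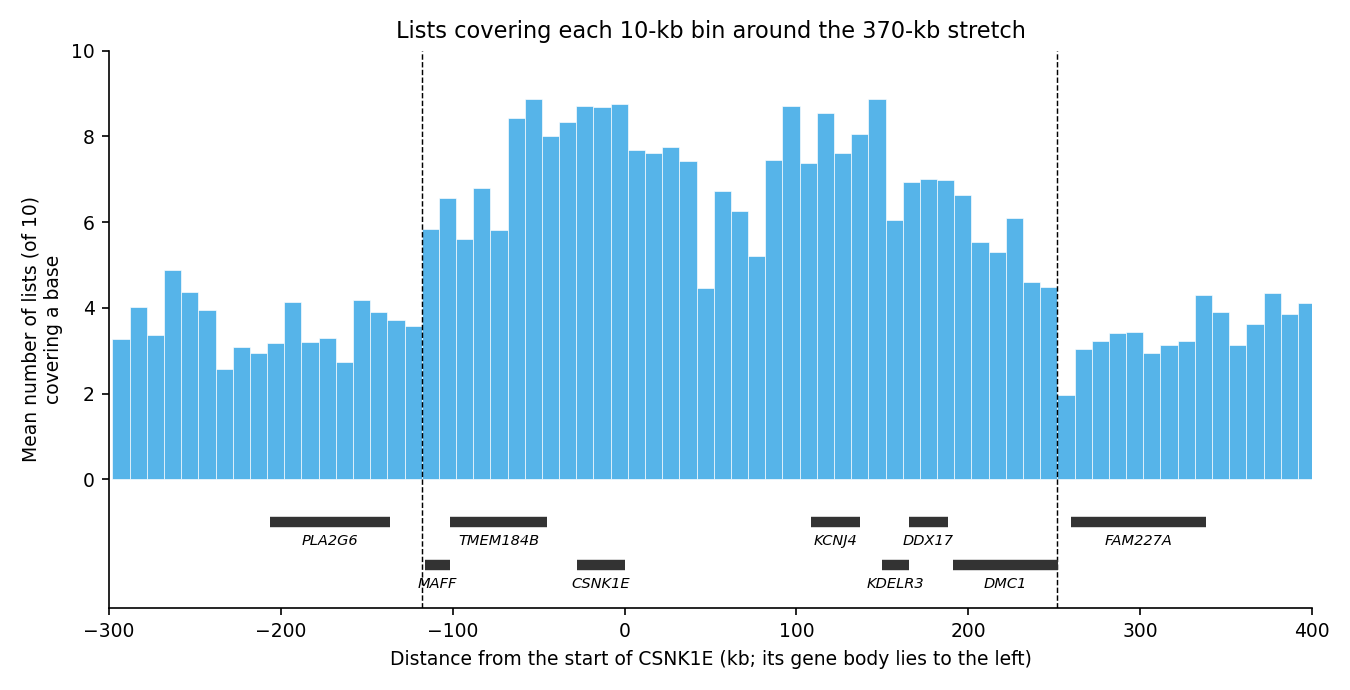
Mean number of lists, of 10, that cover a base in each step of 10 kb, against distance from the start of CSNK1E (kb); dashed lines mark the ends of the 370-kb stretch and dark bars are genes, with the readthrough gene TPTEP2-CSNK1E left out. The highest steps, at 8.87 lists, lie over the start side of TMEM184B and between KCNJ4 and KDELR3, those over CSNK1E are near them, and the count falls to 1.97 just past DMC1.

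ZEB1 and ZNF609 stood out most in the stretch, since they covered little elsewhere. ZEB1 peaks covered 65.0% and 52.0% of the stretch, 12.4% and 5.56% of the rest of the block, and 4.17% and 2.14% of the rest of the chromosome. ZNF609 peaks covered 54.6% and 36.5%, then 4.65% and 1.91%, then 2.27% and 0.785%. Stretch over rest of chromosome was thus 19.9 ± 6.14 for ZEB1 and 35.3 ± 15.8 for ZNF609 (SD, n = 2). HDGF covered 77.5% and 67.1% of the stretch, 25.1% and 18.7% of the rest of the block, and a ratio of 6.22 ± 0.733 to the rest of the chromosome. INTS11 covered 89.1% and 83.9% of the stretch against 52.4% and 25.6% of the rest of the block, with a ratio of 6.01 ± 3.03. INTS13 covered 85.5% and 91.0% of the stretch and 75.8% and 79.3% of the rest of the block, and its ratio of 2.07 was alike in both libraries. In each of the 5 proteins the libraries of the stretch lay above those of the rest of the block without overlap, by the least for INTS13. Outside the stretch the block was covered 1.80 to 2.96 times as much as the rest of the chromosome in the 10 lists. That rest pools dense and sparse areas, so this is not particular to the block. The Mb at chr22:19000001-20000000 had a mean of 3.37 lists over a base, above the 3.01 of the block outside the stretch.

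**Figure D3:**
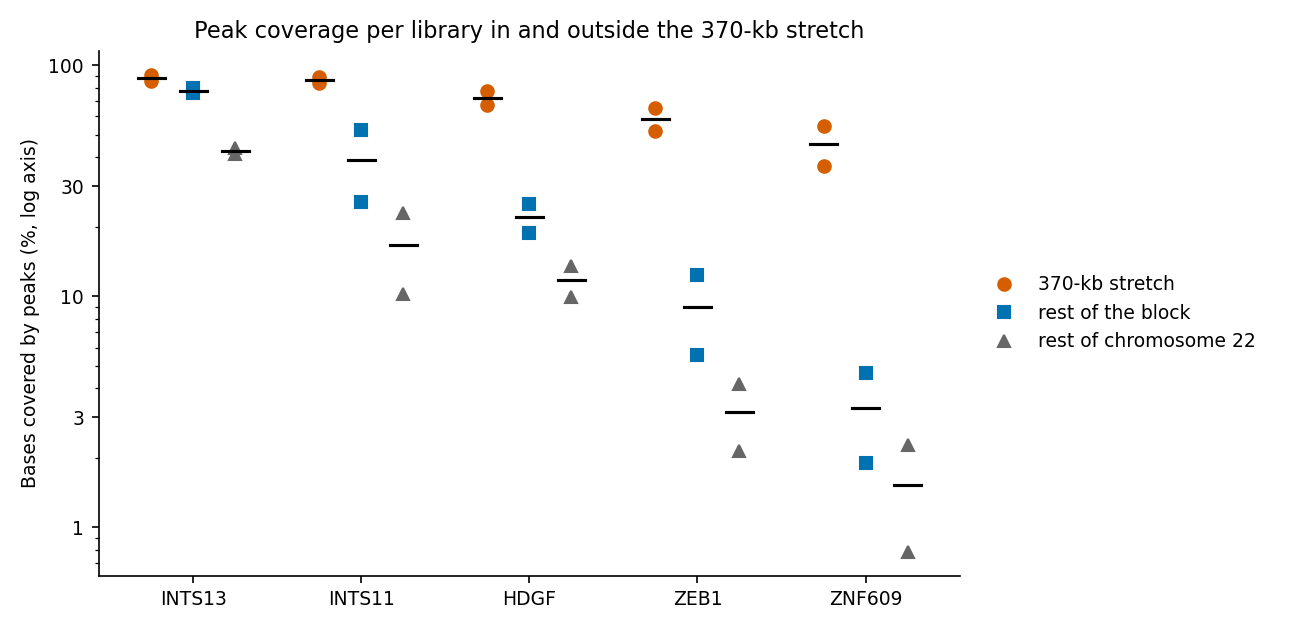
Share of bases covered by peaks (percent, log axis) in the 370-kb stretch, the rest of the block and the rest of chromosome 22; each point is 1 library and each bar the mean of 2. Points of the stretch lie above 36% in all 10 libraries, while the rest of the block falls from 77.6% on average for INTS13 to 3.28% for ZNF609.

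The left edge of the stretch, just before MAFF, was in proportion the larger step for ZNF609 and ZEB1. From the 100 kb before it to its first 100 kb, mean coverage went from 11.4% to 60.2% for ZEB1, from 5.14% to 41.5% for ZNF609 and from 27.5% to 76.8% for HDGF. INTS11 went from 47.1% to 88.6%, and INTS13, already at 83.2%, to 97.8%. At the right edge, at DMC1, ZEB1 went from 39.5% in the last 100 kb to 12.4% in the next, ZNF609 from 33.8% to 6.12%, HDGF from 63.7% to 23.4% and INTS11 from 79.7% to 46.4%. INTS13 moved from 81.5% to 74.8%, so for this protein neither edge stood out.

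The tallest peaks of the chromosome also lay here. The fold of a peak is the height of its summit over the background of the peak caller, as the authors deposited it, and within a list it is set by the p-value 1 to 1, which means that 1 background value served the whole list. Background that differs along the chromosome is therefore not corrected for in the fold, and the input libraries were not analysed. In 10 of 10 lists the highest fold of chromosome 22 was in the stretch. In the HDGF lists it was 7.49 and 7.20, against 6.51 and 6.27 at most outside the block. INTS13 reached 6.58 and 4.96, against 5.19 and 4.05, and INTS11 reached 4.75 and 4.55, against 3.51 and 3.82. ZEB1 peaks rose to 4.93 and 4.58, against 4.16 and 4.07, and ZNF609 peaks to 4.34 and 4.44, against 3.75 and 4.04. None of these peaks led its list over the whole genome: their ranks ran from 22, for HDGF replicate 1, to 309, for INTS13 replicate 2. The tallest peaks differed in form, from 71347 bp wide for INTS13 replicate 2 to 873 bp for ZNF609 replicate 2. Of the 100 peaks with the highest fold on the chromosome in each list, between 18 (INTS13 replicate 1) and 55 (ZEB1 replicate 2 and ZNF609 replicate 2) lay in the stretch.

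Bases under a peak of all 10 lists were nearly all found in this stretch. There were 103 such core segments in the block, all 103 in the stretch, with 49486 bases in all, and the rest of the chromosome had 1 segment of 10 bases. Of the 103, 74 were 200 bp or longer, the median length was 399 bp and the longest 1778 bp. The readthrough gene TPTEP2-CSNK1E held 40 of them and KCNJ4 17, while CSNK1E itself held 14 and TMEM184B 11. DDX17 and DMC1 held 3 each, and KDELR3 and MAFF 2 each. Of the 103 segments, 8 lay within 1 kb of an end of a protein-coding gene. In no protein-coding or long non-coding RNA gene lay 15 of them. Whether the core segments also stand out in input chromatin was not tested.

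The core segments of at least 200 bp whose peaks ranked highest within their lists were inside CSNK1E. By the median percentile over the 10 lists, 4 segments tied at 99.83 and 6 at 99.81, and all 10 lay in this gene. The percentile is that of the highest peak over a segment, and broad peaks spanned many segments. All 10 lay under 1 peak of INTS13 replicate 2 (99.91) and 1 of HDGF replicate 1 (99.99), so they are not 10 separate sites. Single lists could be far lower, as ZNF609 replicate 2 at 36.2 over chr22:38295561-38296367. The first 6 along the chromosome are chr22:38292664-38293229 (566 bp), chr22:38295561-38296367 (807 bp), chr22:38297319-38297987 (669 bp), chr22:38299159-38300078 (920 bp), chr22:38308653-38309100 (448 bp) and chr22:38310736-38311203 (468 bp). They lay 2.26, 5.27, 6.96, 8.93, 9.21 and 7.12 kb from the nearest gene end, so none of the 6 was at a start or an end. The 4 others, tied with the last 2 of these, are chr22:38311804-38312917, chr22:38313326-38313705, chr22:38314274-38315368 and chr22:38316585-38316894, the last of them 1.345 kb from a gene end. At the other extreme, 2.09% of the bases of the stretch were under no peak of any list, against 11.3% in the rest of the block and 40.04% in the rest of the chromosome.

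At the level of genes, the block held 74 protein-coding genes by their start, and all of them had an INTS13 region at an end. A gene was counted for a protein where a region found in both of its libraries reached within 1 kb of either end of the gene. INTS13 was counted at 74 of 74 genes, beside a background of 85.4% of the 377 other protein-coding genes of chromosome 22 and 63.7% of the 19974 on all chromosomes. INTS11 was counted at 70 of 74 (94.6%), beside 54.1% and 17.4%, and HDGF at 58 (78.4%), beside 53.6% and 22.2%. ZEB1 was counted at 27 genes (36.5%), beside 12.2% and 3.78%, and ZNF609 at 12 (16.2%), beside 1.86% and 1.57%. The block was chosen for its peaks, so these shares stand beside the background as a description. All 5 proteins together were counted at 12 genes (16.2%), beside 0.265% of the other genes of the chromosome and 1.14% of all, and 1, 2, 3 and 4 proteins were counted at 2, 14, 33 and 13 genes. These counts hang on the peak threshold: with peaks under a −log10 q of 5 left out, INTS13 was counted at 72 genes, beside 60.5% of the other genes of the chromosome and 18.1% over all chromosomes. INTS11 was then counted at 23, beside 9.28% and 2.83%, and HDGF at 21, beside 8.75% and 2.66%. ZEB1 was counted at 5, ZNF609 at 2 and all 5 proteins at 2, each beside 0 of the 377 other genes of the chromosome and, over all chromosomes, 0.225%, 0.0701% and 0.0451%.

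The 12 genes with all 5 proteins fell in 2 groups along the chromosome. LOC124905115, GCAT, ANKRD54 and EIF3L lie between 37738608 and 37889407, outside the stretch. MAFF, TMEM184B, TPTEP2-CSNK1E, CSNK1E, KCNJ4, KDELR3, DDX17 and DMC1 are the 8 protein-coding genes of the stretch, and none of its genes was without all 5. They are not 8 separate sites: TPTEP2-CSNK1E shares an end with CSNK1E, and TMEM184B overlaps MAFF as KDELR3 overlaps DDX17. The 12 genes that ZNF609 marked were the same 12.

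Coverage along whole gene bodies ranked the genes in another way than their ends. CSNK1E (chr22:38290691-38318084, minus strand) was the most covered gene of the block, with 8.68 lists over an average base. INTS13 covered 96.1% and 98.3% of it, INTS11 98.6% and 96.3%, HDGF 98.0% and 97.3%, ZEB1 87.2% and 71.0%, and ZNF609 70.3% and 54.7%. Thus the 6 lists of INTS13, INTS11 and HDGF left almost none of the gene uncovered, and those of ZEB1 and ZNF609 lay below them without overlap. The tallest HDGF peaks of the whole chromosome, at folds of 7.49 and 7.20, had their summits in this gene, at positions 38296362 and 38311972, and reached past its 3′ end.

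KCNJ4 (chr22:38426327-38455199, minus strand), second with 8.14 lists, had 99.9% of its length under INTS13 peaks in both libraries and 98.0% and 99.1% under INTS11 peaks. HDGF covered 79.6% and 73.6%, ZEB1 86.9% and 66.3%, and ZNF609 61.6% and 49.0%. In KCNJ4, unlike in CSNK1E, the highest ZEB1 value was above both HDGF values, so these groups overlapped. TMEM184B (chr22:38216395-38273010, minus strand), at 7.09 lists, was covered to 96.3% and 96.2% by INTS13, 91.3% and 80.8% by INTS11, and 83.2% and 73.4% by HDGF. ZEB1 covered 62.0% and 46.2% of TMEM184B, and ZNF609 46.7% and 33.3%. In TMEM184B both ZEB1 values lay below both HDGF values, and ZEB1 and ZNF609 overlapped.

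KDELR3 (chr22:38468096-38483447, plus strand), at 6.68 lists, was covered to 94.6% by both INTS13 libraries and to 89.9% and 78.1% by INTS11. HDGF covered 79.4% and 66.8% of it, ZEB1 52.9% and 36.4%, and ZNF609 50.1% and 24.7%. The order of the proteins was thus that of TMEM184B, with ZEB1 and ZNF609 again overlapping. In DDX17 (chr22:38483438-38506311, minus strand), at 6.83 lists, the order differed: HDGF covered 95.1% and 89.3%, above INTS11 at 89.1% and 85.1% and INTS13 at 64.9% and 89.0%. ZEB1 covered 54.2% and 41.5% of DDX17, and ZNF609 55.1% and 19.4%.

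MAFF (chr22:38201994-38216511, plus strand), at 6.37 lists, lay whole under INTS13 peaks of both libraries and was covered to 95.8% and 76.7% by INTS11. ZEB1, with 66.6% and 49.6% of MAFF, overlapped HDGF, with 55.9% and 42.5%, and ZNF609 covered 27.1% and 22.4%. DMC1 (chr22:38509147-38570183, minus strand) was the least covered gene of the stretch at 5.45 lists, with 72.5% and 86.7% under INTS13 and 20.1% to 43.6% under ZNF609. Across the 8 genes of the stretch the median was 6.96 lists, against 3.47 in the other 66 genes of the block and 1.94 in the 377 other genes of the chromosome, whose maximum was 6.37 (THAP7). The ranges of the stretch (5.45 to 8.68) and of the rest of the block (0.315 to 6.46) overlapped, since RPS19BP1, with 6.46 lists, lay above MAFF and DMC1.

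**Figure D4:**
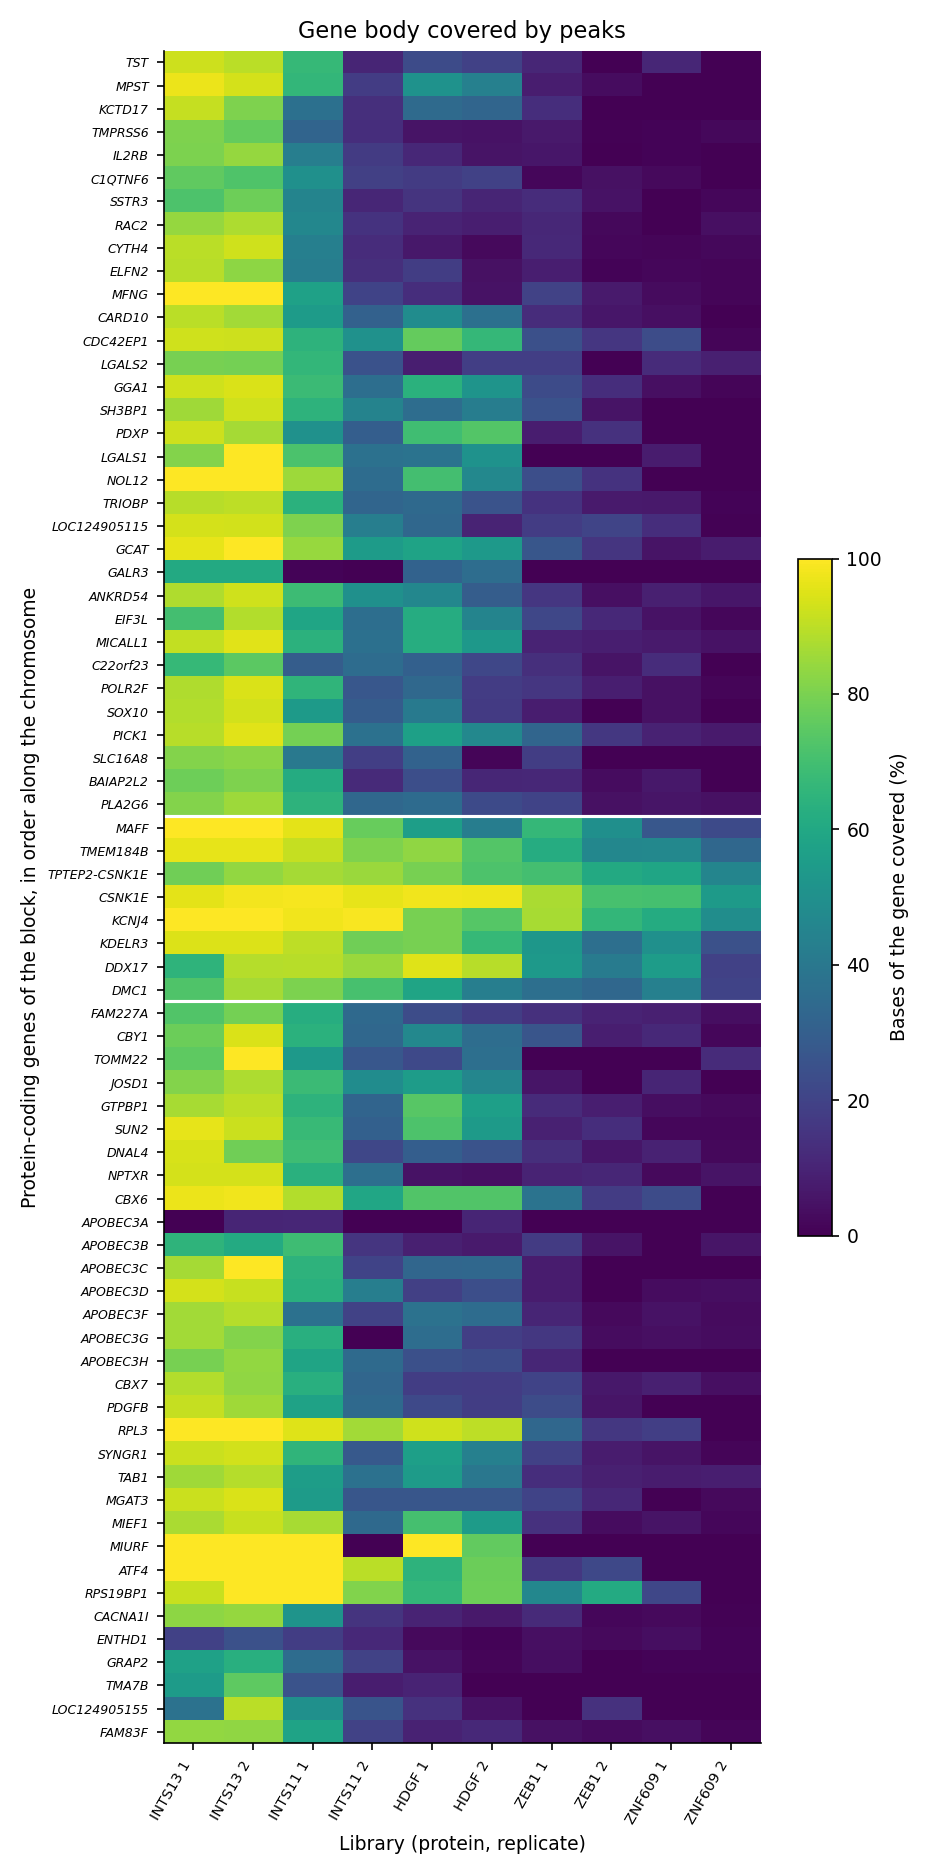
Share of protein-coding genes of the block covered by peaks (percent, colour) in each of 10 libraries, with genes in order along the chromosome and white lines around the 8 genes of the 370-kb stretch. In the ZEB1 and ZNF609 columns these 8 genes form a bright band, up to 87.2% for CSNK1E in ZEB1 replicate 1, and most other genes are dark there.

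Grouped by role, the genes of the block showed the order of proteins found over all 74 genes. Over these, INTS13 was counted at 100%, INTS11 at 94.6%, HDGF at 78.4%, ZEB1 at 36.5% and ZNF609 at 16.2%. The counts of the groups below stand beside these shares, and no group was tested against them. Of the 3 clock and Wnt genes, all had INTS13, INTS11 and HDGF regions at an end, 2 had ZEB1 and 1 had ZNF609, beside the backgrounds given above. CSNK1E had all 5, TAB1, which activates the kinase TAK1, had all but ZNF609, and CBY1, an antagonist of beta-catenin, had the first 3. CBY1 and TAB1 were each covered by about 4 lists over an average base, less than CSNK1E and above the median of 3.47 of the genes outside the stretch.

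All 6 genes of transcription, RNA handling and translation had INTS13, INTS11 and HDGF regions, 4 had ZEB1 and 2 had ZNF609. Over the block these proteins were counted at 74, 70, 58, 27 and 12 of 74 genes. At a −log10 q of 5 or more INTS11 fell to 23 and HDGF to 21, and counts of the groups are not given at that limit. DDX17 and EIF3L, a subunit of a translation initiation factor, had all 5. POLR2F, a subunit of the RNA polymerases, and RPL3, a ribosomal protein, had all but ZNF609, and NOL12 and GTPBP1 the first 3. RPL3 (chr22:39312882-39319623) lay whole under INTS13 peaks and was covered to 92.7% and 90.0% by HDGF, yet ZNF609 covered 18.7% of it in replicate 1 and none in replicate 2.

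The 6 membrane traffic genes followed the same counts, with 6 for INTS13, INTS11 and HDGF, 4 for ZEB1 and 2 for ZNF609. They stand beside the same shares over the block. KDELR3 and TMEM184B had all 5. GGA1, an adaptor of the trans-Golgi network, and SYNGR1, a synaptic vesicle protein, had all but ZNF609, and MICALL1 and PICK1 had the first 3. The median of the 6 was 4.59 lists, and it was 2.65 for the 6 channel and neuronal genes. Of those 6, all had INTS13 and INTS11 regions, 4 had HDGF, and KCNJ4 alone had ZEB1 and ZNF609. CACNA1I, a calcium channel subunit, was covered by 2.67 lists and GALR3, a galanin receptor, by 1.90, against 8.14 for KCNJ4.

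Of the 3 transcription factor genes, all had INTS13, INTS11 and HDGF, MAFF and ATF4 also had ZEB1, and MAFF alone had ZNF609. ATF4, the factor of the integrated stress response, lay whole under peaks of both INTS13 libraries and INTS11 replicate 1, and had no ZNF609 peak in either library. SOX10, a neural crest factor, was covered by 3.36 lists. CBX6 and CBX7, which encode subunits of Polycomb complexes, both had INTS13 and INTS11, CBX6 also had HDGF and ZEB1, and neither had ZNF609. They were covered by 5.67 and 3.43 lists.

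The APOBEC3 genes, a row of cytidine deaminases that act against viruses and retroelements, were among the less covered. INTS13 was counted at 7 of 7, INTS11 at 6, HDGF at 5, and ZEB1 and ZNF609 at none. Like those of the 2 groups that follow, these counts stand beside the shares over the block given above. Their coverage ran from 0.315 lists for APOBEC3A, the lowest of the block, to 3.49 for APOBEC3D. These genes are close copies of each other, and reads that fit several copies could be lost or misplaced, so their values are uncertain. APOBEC3A also starts within a run of 10-kb steps without a peak of any list, chr22:38890001-38960000, most of which lies before the gene. Why this run is empty was not tested. Of the 5 blood cell signalling genes, INTS13 was counted at 5, INTS11 at 4, HDGF and ZEB1 at 1, CARD10, and ZNF609 at none. IL2RB, a chain of the interleukin receptors, had INTS13 alone, and RAC2, a GTPase of blood cells, had INTS13 and INTS11. Of the 5 mitochondrial genes, all had INTS13, INTS11 and HDGF, GCAT and MIEF1 also had ZEB1, and GCAT, an enzyme of threonine breakdown, had all 5.

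Genes that make no protein were also covered in the stretch. Of the 29 long non-coding RNA genes of the block 5 lay there, and LOC105373029, LOC124905116 and LOC105373030 were covered by 8.75, 8.73 and 8.46 lists, near the 8.68 of CSNK1E. LOC101927183 had 7.60 and TMEM184B-AS1, which runs antisense to TMEM184B, 4.50. The peaks carry no strand, so overlapping genes cannot be told apart.

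Whether peaks of the block gather at gene ends was tested, since the choice of the block did not use their place. The share of summits within 1 kb of an end of a protein-coding gene was divided by the share of bases in such windows, which was 8.91% in the block and 4.09% in the rest of the chromosome. In the block INTS13 had ratios of 1.08 and 1.20, INTS11 of 1.10 and 1.03, and HDGF of 1.15 and 1.25. ZEB1 had 1.13 and 1.04, and ZNF609 had 0.759 and 0.885. ZNF609 was the only protein with both libraries under 1. The mean was 1.06 ± 0.147 (SD, n = 10 lists), above 1 in 8 of 10 lists, and this did not differ from 1 beyond the spread of the lists (exact two-sided sign-flip permutation test, p = 0.203, Benjamini-Hochberg adjusted over 3 tests p = 0.203).

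Outside the block the same ratio was higher in 9 of 10 lists. The rest of the chromosome pools unlike areas, with means of 0.0118 to 3.37 lists over a base in bins of 1 Mb. The 2 areas were not matched for gene or peak density. The comparison therefore cannot separate placement at gene ends from peaks being denser in gene-rich areas. INTS13 had 1.18 and 1.12, INTS11 1.36 and 1.39, and HDGF 1.39 and 1.51. ZEB1 had the highest, 1.92 and 1.46, and ZNF609 had 1.34 and 1.30. The block was lower by 0.335 ± 0.243 on average, in 9 of 10 lists, with INTS13 replicate 2 the exception (exact two-sided sign-flip permutation test, p = 0.00391, adjusted p = 0.00586; the smallest p possible is 0.00195). The size of this difference moved with the settings, to -2.24 for peaks with a −log10 q of 5 or more and to -0.195 with long non-coding RNA genes added. With 1 list per protein, exact permutation cannot go below 0.0625, and adjusted p was 0.0938 and 0.188. The 2 lists of a protein share an antibody, so the 10 lists are not 10 independent conditions. Per protein, the difference was -0.606 ± 0.261 for ZEB1, -0.498 ± 0.115 for ZNF609, -0.310 ± 0.0698 for INTS11, -0.251 ± 0.0235 for HDGF and -0.00919 ± 0.125 for INTS13 (SD, n = 2). For INTS13 the mean difference was smaller than the gap between its libraries. Gene bodies, which make up 65.8% of the bases of the block, held between 65.5% (INTS11 replicate 2) and 73.4% (ZNF609 replicate 2) of the summits in the 10 lists, and more than their share of bases in 8 of them. In the rest of the chromosome they make up 55.6% of the bases. There they held 62.9% (INTS13 replicate 2) to 75.9% (HDGF replicate 1) of the summits, above their share in every list, so this excess is not particular to the block.

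**Figure D5:**
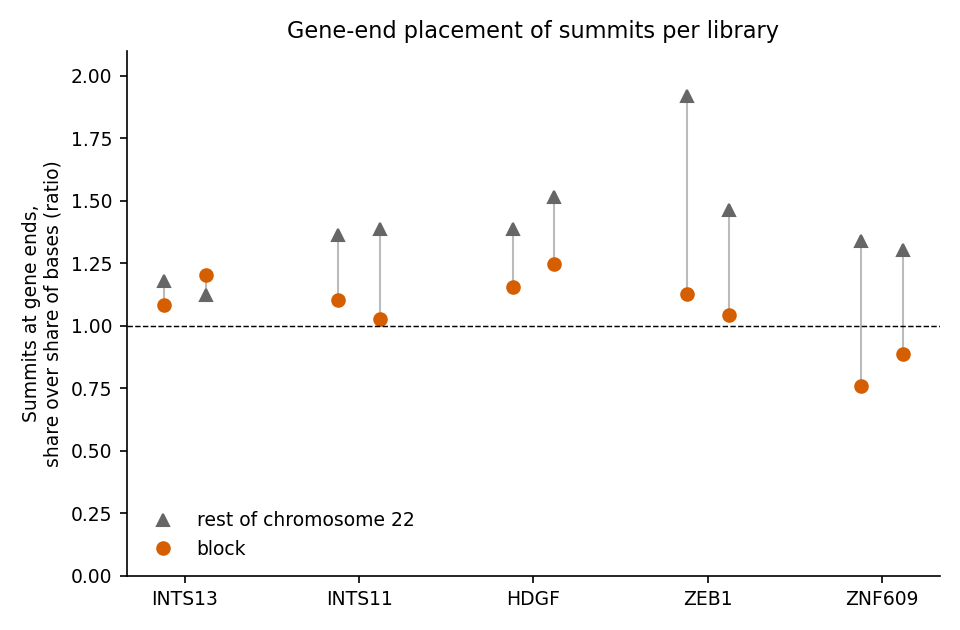
Share of summits within 1 kb of a gene end over the share of bases there (ratio; 1, dashed, is an even spread) for each library, in the block and in the rest of chromosome 22; grey lines join the 2 values of a library. The block is lower in 9 of 10 libraries, and both ZNF609 libraries lie under 1 in the block.

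In the block, the overlap of covered bases was on average higher between libraries of the same protein than between libraries of different proteins. The Jaccard index, the bases 2 lists share over those either covers, was 0.422 ± 0.238 within a protein (SD, n = 5 pairs) and 0.249 ± 0.123 between proteins (n = 40 pairs). The difference was 0.173 (exact one-sided permutation test over the 945 ways to pair the libraries, p = 0.00212, adjusted p = 0.00586; the smallest p possible is 0.00106). Without INTS13 the difference was 0.0888 (exact permutation test, adjusted p = 0.0286). The index also depends on the covered share of the block, which ran from 6.17% (ZNF609 replicate 2) to 80.7% (INTS13 replicate 2). That share was not held fixed in the test, which therefore cannot separate a like place of peaks from a like coverage. The 2 INTS13 libraries had an index of 0.827, those of INTS11 0.392 and those of HDGF 0.400. The index was lower still, at 0.254, in ZEB1 and, at 0.239, in ZNF609. The index between INTS13 and INTS11 libraries had a mean of 0.497 and a range of 0.367 to 0.631, as high as that between the 2 INTS11 libraries. ZEB1 with ZNF609, at 0.244, lay between the values within each, so libraries of these 2 proteins were about as alike as the replicates of each.

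The index was set largely by the stretch for the sparser proteins. In the stretch it was 0.542 for the 2 ZEB1 libraries and 0.388 for ZNF609, and in the rest of the block 0.0707 and 0.0242. INTS11 had 0.850 and 0.293, HDGF 0.662 and 0.304, and INTS13 0.917 and 0.813. Between proteins the mean was 0.595 in the stretch and 0.144 in the rest of the block. The index grows with the share of bases covered, and the values of the stretch lie beside coverage of 36.5% to 91.0%.

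By raw number, regions found in both libraries of a protein were more numerous in the block than outside it for ZNF609 alone. The block spans 3 Mb and the rest 30.2 Mb, so these counts are not densities. For each of the 5 proteins such regions covered a larger share of the block than of the rest. The shares ran from 85.2% against 47.6% for INTS13 to 7.09% against 0.222% for ZNF609. INTS13 had 364 in the block and 5586 in the rest of the chromosome, INTS11 561 and 2682, and HDGF 431 and 2521. ZEB1 had 171 and 258, and ZNF609 had 96 and 76. INTS13 regions were fewer than those of INTS11 in the block and more outside it. All 171 ZEB1 and all 96 ZNF609 regions overlapped an INTS13 region, as did 429 of 431 for HDGF and 553 of 561 for INTS11. Outside the block these shares were 95.0%, 90.8%, 93.2% and 95.2%. They stand beside INTS13 regions that cover 85.2% of the block and 47.6% of the rest of the chromosome.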

How the data were processed

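ChIP-seq peaks of 5 proteins in HEK293T cells were analysed, 2 libraries each. Per the submitters' processing notes, reads passed through FastQC, Trimmomatic, Bowtie, Picard and MACS2; the sources used here give no versions, control or thresholds. Peaks were deposited per library, each with a score (10 times the −log10 q), a fold (a ratio, linear), and p-values and q-values on a −log10 scale, all the authors' values. Contig names are those of GRCh38, taken as the build. Read depth is unknown, so no counting interval is given. Every fold had 1 p-value within its list, and folds were compared within a list only.

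Members and gene lists were chosen with earlier results of these data known. Peaks were assigned by start. The rest of chromosome 22 (30.2 Mb) is its bins of 100 kb with a peak of any list. Peaks of both libraries were merged at 1 bp overlap. Gene ends are those of RefSeq (GRCh38.p14), in windows of 1 kb. The result for 1 gene of the block is not reported here. Promoter windows matched 48 of the 74 genes. The genes named are 4 fixed with the block, those with all 5 proteins at an end, and members of fixed lists; of core segments, the 6 with the highest median percentile, ties taken in order of position. RPS19BP1, THAP7, the non-coding genes and the 4 tied segments were named after their values were seen. Tests were exact permutations over lists, adjusted over 3 tests, and were tested on simulated data. Analyses used Python 3.11.15, numpy 2.4.6 and pandas 2.3.3.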

Additional observations from a re-analysis of the deposited data

Results flagged for a closer look

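INTS13 had fewer peaks per Mb in the block than in the rest of chromosome 22, with a mean ratio of 0.740 and both libraries below 1 (0.800 and 0.679). Both libraries of INTS11, HDGF, ZEB1 and ZNF609 were above 1, so the direction differed between proteins; the difference itself was not tested. By covered bases INTS13 was at 1.85, above 1 like the others.

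Summits of ZNF609 were less often at gene ends in the block than the share of bases there, with a mean ratio of 0.822 and both libraries below 1 (0.759 and 0.885). Both libraries of INTS13, INTS11, HDGF and ZEB1 were above 1 in the same measure; this difference was not tested. In the rest of chromosome 22 the ZNF609 libraries stood at 1.34 and 1.30.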

How the results depend on the processing

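The density ratio of INTS13 turned from below to above 1 where peaks with a −log10 q of 5 or more were kept (1.81), where the 10000 peaks with the highest −log10 p of each list were kept (4.32) and where covered bases replaced peaks (1.85). The other 4 proteins kept their side. For these, INTS11, HDGF, ZEB1 and ZNF609 in this order, the ratios at −log10 q of 5 were 4.98 ± 2.33, 3.75 ± 0.850, 20.6 ± 11.2 and 50.3 ± 14.2 (SD, n = 2). The libraries thus lay far apart, most of all for ZEB1 in proportion. The ratios were 6.12, 3.28, 8.18 and 11.5 for the 10000 highest peaks, and 2.83, 2.40, 4.89 and 6.31 for covered bases. With lengths in bins of 1 Mb, HDGF was 1.86 and ZEB1 3.56. Without the 370-kb stretch, an alternative chosen after seeing the data, ZEB1 was 2.70 and ZNF609 2.21. The cause was not tested. Over all results, 72 alternative values kept their direction and call or moved little, 30 moved, 2 fell short of the threshold and 3 turned. Leaving out each replicate gave 0.679 to 0.800 for INTS13, 1.51 to 2.06 for INTS11, 1.64 to 1.76 for HDGF, 3.18 to 3.34 for ZEB1 and 2.88 to 4.79 for ZNF609.

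Gene-end placement in the block, without each replicate, was 1.05 to 1.08. The difference from the rest of the chromosome was -0.392 to -0.277 without each replicate, where 5 lists cannot give an exact permutation p under 0.0625 (adjusted p = 0.0938 without replicate 2 and 0.188 without replicate 1). It kept its direction and its call with windows of 500 bp (-0.333) and 2 kb (-0.369), with long non-coding RNA genes added (-0.195), at −log10 q of 5 (-2.24) and without the stretch (-0.284). The Jaccard difference was 0.0888 to 0.220 without each protein, the lowest without INTS13, and 0.0769 in the stretch alone.

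Counts of genes with a region at an end fell under stricter rules. With an overlap of at least 0.5 of each peak, both ways, INTS11 was counted at 38 genes and all 5 proteins at 4. At −log10 q of 5, INTS11 was counted at 23, HDGF at 21, ZEB1 at 5, ZNF609 at 2 and all 5 at 2, while INTS13 was counted at 72. Outside the stretch ZNF609 was counted at 4 of 66 genes and all 5 at 4. Single lists gave 74 to 74 genes for INTS13, 67 to 74 for INTS11, 65 to 66 for HDGF, 43 to 60 for ZEB1, 21 to 30 for ZNF609 and 17 to 25 for all 5.

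Replicate numbers were not shown to pair the libraries: over the 10 pairs of proteins, differences in coverage between same-numbered libraries correlated at -0.579 to 0.388 (median 0.0778). With the replicate block the Jaccard difference was 0.172 (exact permutation p = 0.00833, the smallest possible, adjusted p = 0.0125), and the gene-end ratio averaged by number was 1.06, with no test. Depth is unknown, so a library with fewer peaks cannot be told apart from one with fewer reads.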

Other observations

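Over the 89 RefSeq promoter windows of the block, the median was 3.33 lists over an average base. The number of lists was lower where the G+C share was higher (Spearman's rho -0.266, Pearson's r -0.302, n = 89 windows that share libraries and partly overlap), given as a description. Starts of 1 gene went either way: the 2 starts of CSNK1E, at 50.8% and 73.6% G+C, had 9.11 and 2.996 lists over an average base, and 2 of the 3 starts of ANKRD54, at 57.6% and 81.2%, had 2.01 and 4.82.

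The small nucleolar RNA gene SNORA92 in the stretch was covered by 7.61 lists and the transcribed pseudogene TPTEP2 by 6.21. None of the 4 microRNA genes of the block lay in the stretch.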
